A study of Mus musculus with 15 samples.

Results

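The subject was the difference between the 2 branches of the first branchial arch in wild-type mouse embryos. The 3 arrays labelled WT_MNA, from the mandibular branch, were compared with the 3 arrays labelled WT_MXA, from the maxillary branch, which made 6 of the 15 arrays of the series, chosen by their titles. All embryos were at E10.5 (embryonic day), and the RNA was total RNA of craniofacial tissue from the first branchial arch. The arrays were Affymetrix mouse arrays with 45101 probe sets, and the deposited value of a probe set, called its signal here, was a linear intensity. A further 3 wild-type maxillary arrays, labelled WT_MXA2 and called set 2 here, served as an alternative control. The remaining arrays were of the Dlx5/6 mutant mandibular branch and of a KO maxillary branch. They entered the normalization, the filter of probe sets and the estimate of the spread between arrays, but were not compared. The sources used here do not give strain, sex or the number of embryos behind an array. The shared label text was a plan, which foresaw separate dissection of the branches, freezing and pooling of arches. The p values therefore measured the spread between these arrays, which may be technical.

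The first arch is the swelling below the embryonic face that forms the jaws. Its skeleton-forming mesenchyme comes from cranial neural crest, is wrapped in ectoderm and endoderm, and surrounds a mesodermal core that forms jaw muscle. The mandibular branch forms the lower jaw, and the maxillary branch forms most of the upper jaw and the sides of the palate. In the mandibular branch, endothelin 1 signals through its receptor on crest cells and switches on Dlx5, Dlx6 and Hand2. Nested activity of the Dlx genes gives the crest cells of each branch their identity. The trigeminal ganglion, a sensory ganglion, lies beside the root of the arch and sends nerves into both branches.

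The median signal of the 6 arrays lay between 26.6 and 30.9, and arrays of a group correlated with each other at 0.985 to 0.990 over probe sets. The signal of the dap spike-in control was 496 to 583 on the 6 arrays and 3985 to 4469 on the set 2 arrays, so set 2 belonged to another set of arrays. The summed signal of 5 markers of arch mesenchyme was 6125 to 6705 on the mandibular and 7476 to 7932 on the maxillary arrays, so these genes of the labelled tissue were bright in both branches. The summed signal of 3 measured markers of neighbouring head tissue was 89.6 to 108.4 on the mandibular and 88.0 to 130.2 on the maxillary arrays. Sensory neuron markers differed most between the branches, with sums of 479.6 to 522 on the mandibular and 2455 to 2528 on the maxillary arrays, and 998 to 1045 in set 2. Glial marker sums were 166.6 to 214 on the mandibular and 580.8 to 740 on the maxillary arrays, and macrophage marker sums were 241 to 262 and 376 to 408. In RNA of whole branches, fewer cells of a type and less RNA per cell cannot be told apart.

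Differences are given as mandibular minus maxillary on the scale log2(signal + 32), so a positive value means higher in the mandibular branch, and ± is the standard error from limma. A gene was called when its p value from limma, adjusted by Benjamini and Hochberg over 31643 probe sets, was under 0.05. Calls were made for 835 (2.64%) of these probe sets, with 356 (1.13%) higher on the mandibular arrays and 479 (1.51%) lower. A gene was represented by 1 probe set, and of 13934 measured genes 496 were called, which is 3.56% of them. They divided into 217 genes (1.56%) that were higher and 279 (2.0%) that were lower in the mandibular branch. For 493 of the called genes the 3 values of one branch lay wholly above those of the other, which was the case for 19.6% of all measured genes. These values were log2(signal + 32) after quantile normalization. The exceptions were Knl1, Cdc25a and Nrk, named here after their values had been seen. Most differences were small, with a median size of 0.59 among called genes. An absolute difference of at least 1 was found for 88 called genes, 41 higher and 47 lower, and one of at least 2 for 20, 11 higher and 9 lower. When arrays were shifted to a common median in place of quantile normalization, higher ones made up 56.5% of the called probe sets, against 42.6%. The call was kept in each of the 6 fits that left out a single array by 292 called genes, 122 higher and 170 lower. Set 2 shares the mandibular arrays with this comparison. Used as the maxillary control, it left 156 of the 217 higher genes and 177 of the 279 lower genes called in the same direction, against 11.5% of all genes called there in either direction. The opposite call was made there for 1 of the higher genes, Mterf2 (0.36, and -0.37 against set 2), and for 4 of the lower genes. These were Isl1, Arglu1 (-0.32, and 0.30 against set 2), Macroh2a1 (-0.33 and 0.35) and Rab10 (-0.41 and 0.30), all named after their values had been seen. The 2 maxillary groups also differed from each other, with 1268 genes (9.1%) called between them. Calls did not hold for Knl1 without mandibular replicate 1 or 2 or maxillary replicate 1 or 3 (adjusted p 0.066 to 0.22), Cdc25a without mandibular replicate 1 or maxillary replicate 1 or 3 (adjusted p 0.15 to 0.21) and Nrk without mandibular replicate 2 or 3 or any 1 maxillary array (adjusted p 0.073 to 0.27). Fits that left out an array made no call for Mterf2 without mandibular replicate 1 or 3 or any 1 maxillary array (adjusted p 0.055 to 0.11), Arglu1 without mandibular replicate 1 or 2 or any 1 maxillary array (adjusted p 0.081 to 0.13) and Macroh2a1 without mandibular replicate 1 or maxillary replicate 2 or 3 (adjusted p 0.092 to 0.17). No call was made for Rab10 without mandibular replicate 2 (adjusted p = 0.069).

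**Figure D1:**
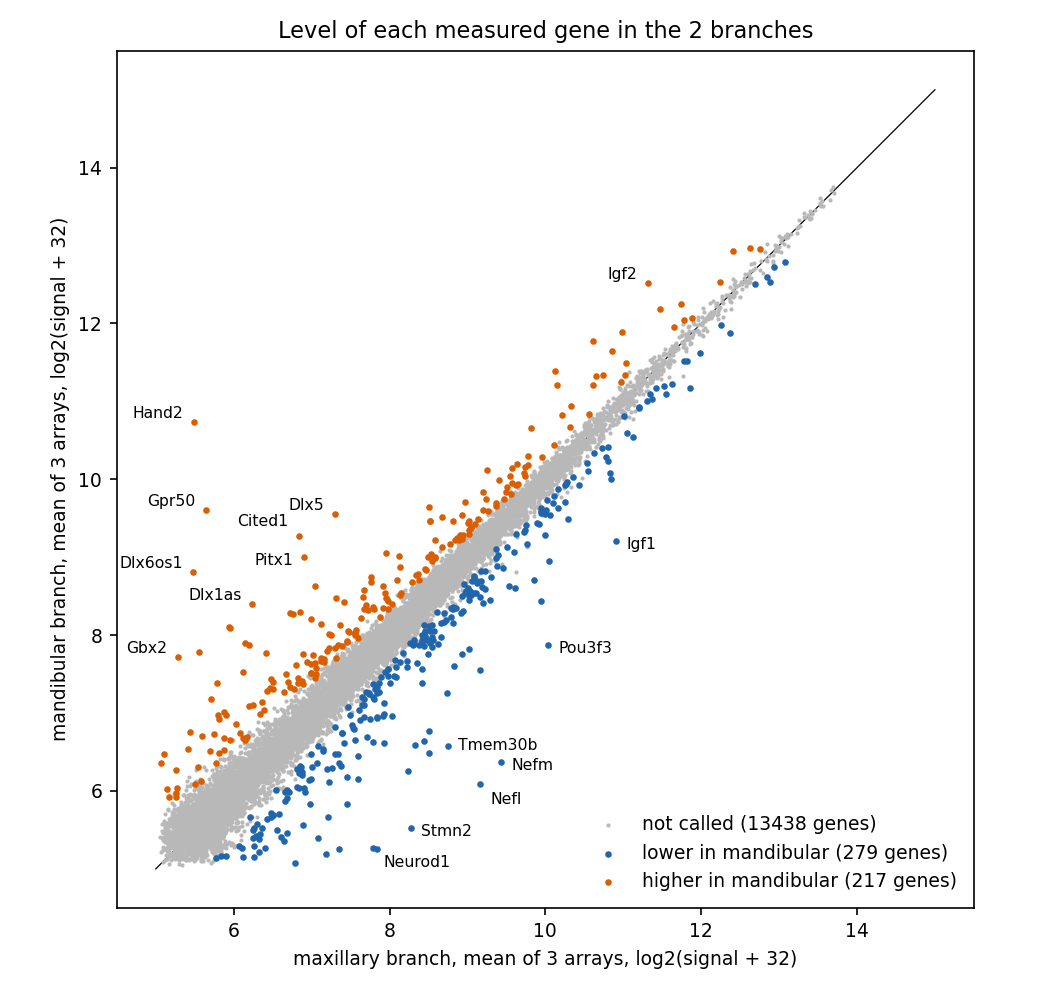
Mean level of every measured gene on the 3 maxillary arrays (x axis) and the 3 mandibular arrays (y axis), both as log2(signal + 32) after quantile normalization. Grey points are genes not called, blue points the 279 genes lower and orange points the 217 genes higher in the mandibular branch, with some leading genes named. Hand2 and Gpr50 stand farthest above the diagonal, and Nefl and Nefm farthest below it.

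Hand2 showed the largest difference of all measured genes. It encodes a basic helix-loop-helix factor that is needed for the lower jaw and acts below endothelin signalling. Its signals were 1685, 1702 and 1606 on the mandibular arrays and 9.41, 17.0 and 14.2 on the maxillary arrays. The maxillary signals lay below the median signal of those arrays, and the difference was 5.24 ± 0.13 (adjusted p = 8.7e-18). A dimmer second probe set of Hand2 was called as well, with a difference of 2.04. Its relative Hand1, which is active at the ventral tip of the arches, read 112, 118 and 113 on the mandibular arrays and 13.6, 32.7 and 17.5 on the maxillary arrays, a difference of 1.47 without overlap. Of 18 measured genes of the mesenchymal helix-loop-helix and Id list, 3 were higher and 1 was lower. The third higher gene was Tcf21 (1.13), a factor of branchial muscle precursors, and the lower gene was Twist1 (-0.39), which is active throughout arch mesenchyme.

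The promoter of Hand2 is shown because it belongs to the gene with the largest difference. The sequence covers the 250 bases before the start site in RefSeq, chr8:57320733-57320982, build GRCm38.p6, plus strand, 5′ to 3′, and the capitals mark the homeodomain core motif TAATTA, which reads the same on both strands.
Hand2: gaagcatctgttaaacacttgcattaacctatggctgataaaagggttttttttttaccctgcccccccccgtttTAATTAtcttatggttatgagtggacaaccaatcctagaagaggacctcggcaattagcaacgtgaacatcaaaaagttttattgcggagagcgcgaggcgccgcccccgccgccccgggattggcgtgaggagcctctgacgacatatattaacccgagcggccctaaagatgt
This motif occurred in 5.29% of the 32851 promoters of the table, in 3.86% of those of genes higher and in 5.4% of those of genes lower in the mandibular branch, counted over windows of 300 bases. Its presence in the window is a description and was not linked to a factor.

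The Dlx genes split between the branches. Of 8 measured genes and antisense transcripts of the family, 5 were higher and 1 was lower on the mandibular arrays, and the median difference was 1.79 against 0.00 over all genes. Dlx5, which specifies mandibular identity together with its chromosomal neighbour Dlx6, had signals of 770.3, 721 and 689.9 on the mandibular arrays and 138, 115 and 128.4 on the maxillary arrays. Dlx6 read 196, 256 and 298 on the mandibular arrays and 38.9, 32.4 and 19.8 on the maxillary arrays. Dlx6os1, an antisense transcript of Dlx6, read 394, 444 and 428 on the mandibular arrays and 8.11, 11.8 and 20.04 on the maxillary arrays, so the whole gene group was higher, with differences of 2.26 ± 0.12, 2.17 ± 0.18 and 3.32 ± 0.15. Dlx3, a gene of the ventral arch, gave 170.0, 143 and 150.4 on the mandibular arrays and 39.6, 41.3 and 33.3 on the maxillary arrays, a difference of 1.41. Its partner Dlx4 gave 36.8, 41.5 and 53.6 on the mandibular arrays and 19.3, 27.9 and 15.9 on the maxillary arrays, and its difference of 0.55 ± 0.16 missed the threshold (adjusted p = 0.078). The Dlx4 antisense transcript Dlx4os was called, with a difference of 1.28.

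Dlx1 and Dlx2, which are active in both branches, behaved otherwise. Dlx1 read 481, 489.6 and 476 on the mandibular arrays and 629, 641 and 620.3 on the maxillary arrays, a small but well separated difference of -0.37 ± 0.07. Dlx2 read 319.8, 254 and 269 on the mandibular arrays and 281, 287 and 284 on the maxillary arrays, and the arrays of the branches overlapped (difference -0.02 ± 0.10). The antisense transcript of Dlx1, Dlx1as, went the other way from Dlx1, with signals of 232, 384 and 329 on the mandibular arrays and 41.4, 43.2 and 46.5 on the maxillary arrays and a difference of 2.17. The array's probes for a gene and its antisense transcript lie on opposite strands in principle, but the sources used here do not say whether the labelling kept the strands apart. Against set 2 both Dlx1 (-0.55) and Dlx2 (-0.57) were called lower in the mandibular branch.

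Several other homeobox genes had far higher signals on the mandibular arrays. Gbx2, a homeobox gene of the ventral mandibular arch, gave 189, 170.1 and 184 on the mandibular arrays and 9.40, 10.2 and 2.14 on the maxillary arrays. Gsc, which encodes goosecoid and is needed for parts of the lower jaw and middle ear, gave 194, 203 and 175 on the mandibular arrays and 8.07, 20.8 and 18.3 on the maxillary arrays. Pitx1, a paired-type factor that is active in the mandibular branch and hindlimb, gave 548, 468 and 450.1 on the mandibular arrays and 67.5, 101 and 99.2 on the maxillary arrays. None of these genes overlapped between the branches, and the differences were 2.44 ± 0.17, 2.23 ± 0.19 and 2.10 ± 0.14. Smaller rises were found for Tlx1 (0.99), a homeobox gene of branchial arches and spleen, and for its chromosomal neighbour Kazald1 (1.01), which encodes a secreted protein related to IGF binding proteins. Irx4 (0.77), Meis1 (0.69), a partner of Hox and Pbx proteins, and Tbx22 (0.75), an X-linked T-box gene mutated in human cleft palate, were higher as well. Nr5a2 was the called member among 17 nuclear receptors, a share of 5.88% against 3.56% of all measured genes. Its signals were 100.5, 82.4 and 84.5 on the mandibular arrays and 25.3, 24.9 and 23.7 on the maxillary arrays, a difference of 1.10. The zinc finger genes Tshz1 (0.94) and Tshz2 (0.82), relatives of Drosophila teashirt, were higher together, and the related Tshz3 (0.49) was not called. The threshold was missed for Kazald1 without mandibular replicate 2 or maxillary replicate 1 or 3 (adjusted p 0.05001 to 0.062) and Irx4 without mandibular replicate 1 or 3 or maxillary replicate 2 or 3 (adjusted p 0.07 to 0.18). Against set 2 Irx4 (0.46) was not called.

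Several forkhead genes were higher in the mandibular branch. Of 21 measured members 6 were higher and 2 were lower, and leaving out single arrays gave 3 to 6 higher ones. Against set 2, 4 were higher and 4 were lower. Foxf1, a target of hedgehog signalling in mesenchyme, gave 284, 265 and 291 on the mandibular arrays and 81.3, 91.3 and 61.0 on the maxillary arrays, and its neighbour on the chromosome, the noncoding transcript Fendrr, was higher by 1.08. Foxd1 (1.10), Foxd2 (0.49), Foxc2 (0.62) and Foxp1 (0.38) are mesenchymal forkhead genes, and Foxa1 (0.86) is a gene of endoderm. Its relative Foxa2 had a similar difference of 0.62 ± 0.20 that missed the threshold (adjusted p = 0.14). In contrast, Foxl2, which is best known from ovary and eyelid, was higher in the maxillary branch. It had signals of 79.0, 70.2 and 82.3 on the mandibular arrays and 314, 372 and 316 on the maxillary arrays and a difference of -1.73 ± 0.10. The transcript Foxl2os beside it differed by -1.81. Calls did not hold for Foxd2 without mandibular replicate 1 or maxillary replicate 1 or 3 (adjusted p 0.075 to 0.083), Foxc2 without mandibular replicate 2 or maxillary replicate 1 or 3 (adjusted p 0.052 to 0.11) and Foxp1 without mandibular replicate 2 or 3 or maxillary replicate 3 (adjusted p 0.073 to 0.13). Foxd2 (0.21), Foxc2 (0.30) and Foxp1 (0.07) were not called with set 2 as control.

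**Figure D2:**
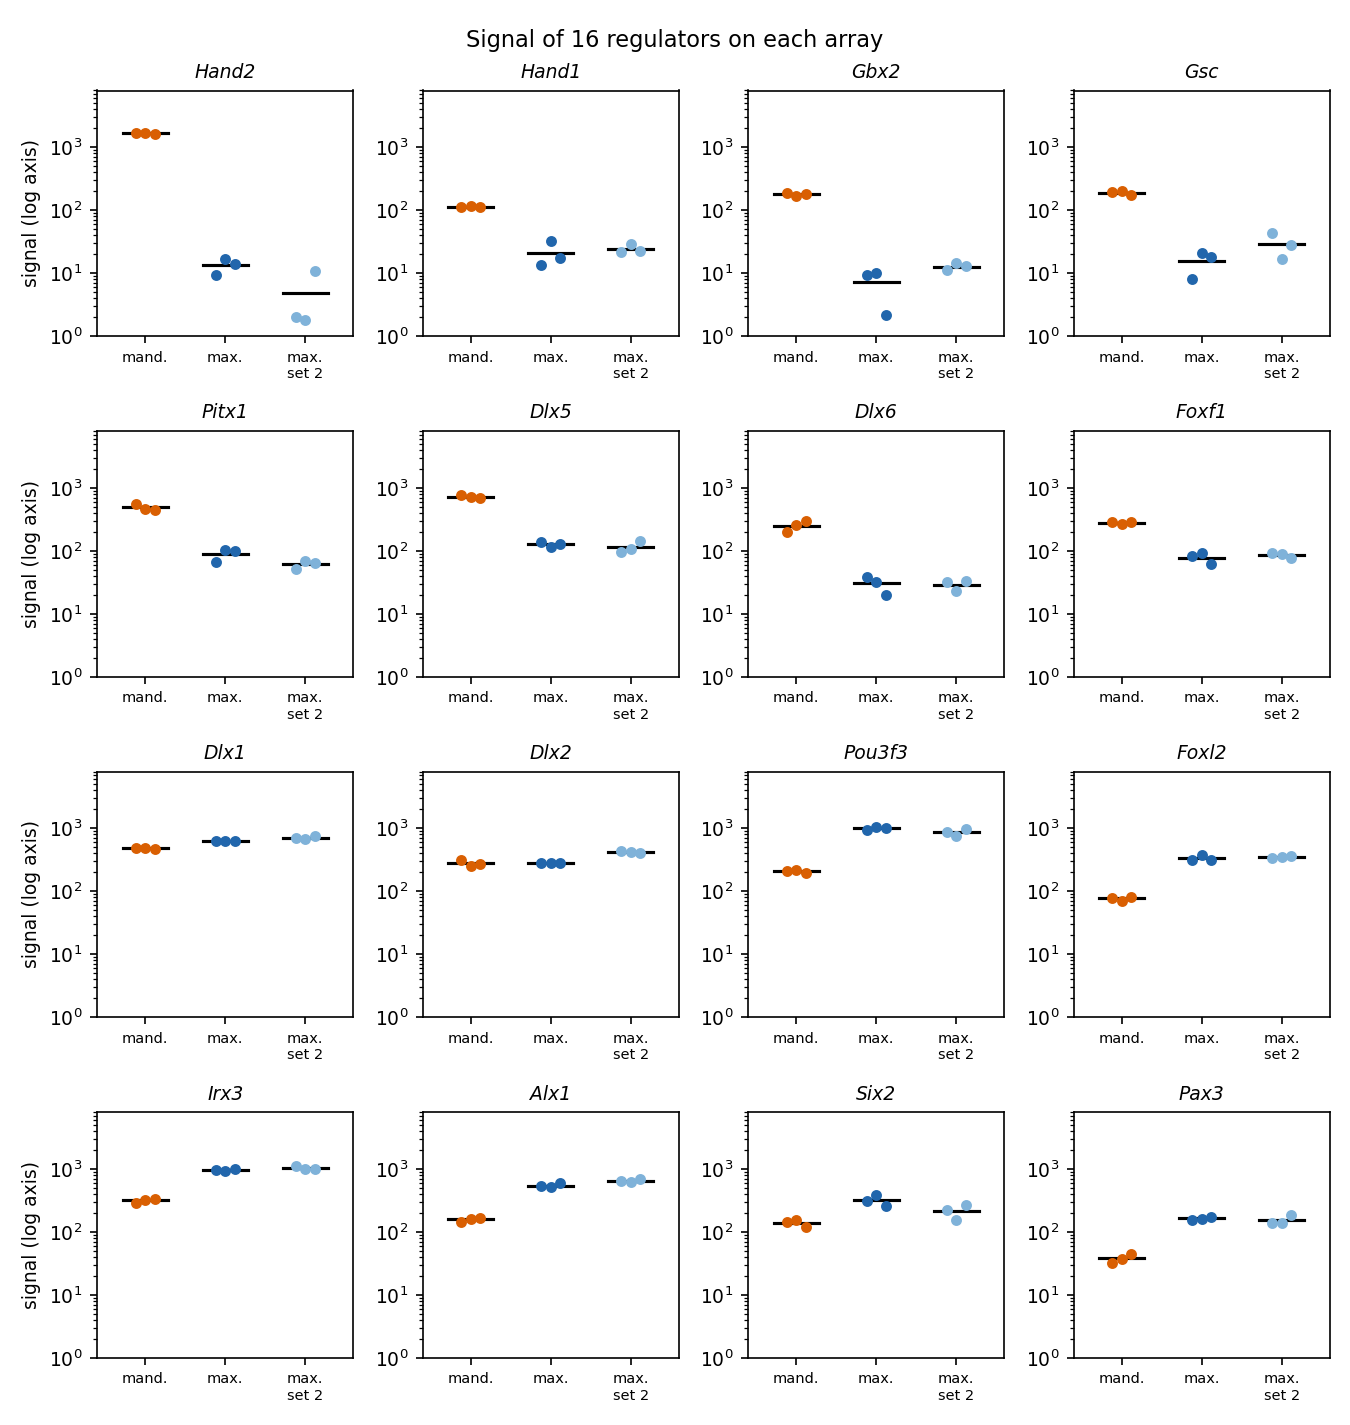
Signal of 16 regulators on each array (log axis, arbitrary intensity units), with 3 points for the mandibular branch, 3 for the maxillary branch and 3 for set 2, and a bar at each group's mean. Hand2, Gbx2, Gsc, Pitx1, Dlx5 and Foxf1 lie far above both maxillary groups, Pou3f3, Foxl2, Irx3 and Alx1 lie below both, and Dlx2 overlaps between the mandibular arrays and the maxillary arrays but not set 2.

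Other regulators had higher signals in the maxillary branch. The POU factor list had 6 measured members, of which 0 were higher and 4 lower in the mandibular branch. Pou3f3, a gene of the proximal arch, had signals of 207, 219.6 and 193 on the mandibular arrays and 935, 1060.3 and 1022 on the maxillary arrays, a difference of -2.15 ± 0.09 (adjusted p = 7.5e-14). Its neighbour Pantr1, a noncoding transcript, differed by -1.74, and Pou3f4 by -0.73. The fourth member, Pou4f1 (-1.29), is a gene of sensory neurons, whose markers were higher on the maxillary arrays as well. Among Iroquois genes Irx3 read 292, 326 and 336 on the mandibular arrays and 943, 917 and 987 on the maxillary arrays, and Irx5 read 109, 126 and 131 on the mandibular arrays and 379, 397 and 420.5 on the maxillary arrays. Both lie in 1 gene cluster with the transcript Crnde between them, which also differed (-0.92), and the branches did not overlap for any of these 3. Fits that left out an array made no call for Pou3f4 without maxillary replicate 3 (adjusted p = 0.071).

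Among paired-type homeobox genes more calls were lower than higher in the mandibular branch. Of 16 measured members 7 were lower and 2, Gsc and Pitx1, were higher, while 7 were not called. Against set 2, 5 were lower and 3 were higher. Alx1, needed for the upper face, had signals of 144, 159 and 169 on the mandibular arrays and 525, 513 and 586 on the maxillary arrays and a difference of -1.60 ± 0.08, and its second probe set was called too (-1.12). Pax3, active in neural crest and in neurogenic placodes, gave 32.5, 37.6 and 43.9 on the mandibular arrays and 154, 161 and 173 on the maxillary arrays. Pax9, needed for teeth and palate, gave 18.6, 54.2 and 45.3 on the mandibular arrays and 107, 71.7 and 105 on the maxillary arrays, and neither gene overlapped between the branches. The mesenchymal genes Prrx2 (-0.81) and Prrx1 (-0.30) were lower by less. Otx1 (-0.63) and the sensory neuron gene Prrxl1 (-0.95) were the other lower members. No call was made for Prrx1 without maxillary replicate 3 (adjusted p = 0.067), Otx1 without any 1 mandibular array or maxillary replicate 1 or 2 (adjusted p 0.077 to 0.18) and Prrxl1 without mandibular replicate 1 or 2 or maxillary replicate 3 (adjusted p 0.06 to 0.07). Set 2 in place of WT_MXA gave no call for Prrx1 (-0.17) and Prrxl1 (-0.27).

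Called members of further families were mostly lower in the mandibular branch. All 4 called members of the list of Eya, Dach and Six2-related genes, out of 10, were lower in the mandibular branch, and the median of the list was -0.32. Six2, a gene of facial mesenchyme, read 143, 152 and 117 on the mandibular arrays and 308, 382 and 259 on the maxillary arrays, without overlap. Dach1 (-0.96), Eya1 (-0.53) and Six4 (-0.36) were the others. The T-box repressors Tbx2 (-1.01) and Tbx3 (-0.68), the LIM homeobox genes Lhx6 (-1.18) and Lhx8 (-0.75) of oral mesenchyme, and the crest regulators Tfap2a (-0.51) and Tfap2b (-0.50) were lower. In the T-box and LIM lists 1 called gene each was higher, Tbx22 (0.75) and Lmo4 (0.59). Ebf1 (-1.14) and Ebf2 (-1.07) were lower, whereas Ebf3 (0.41) was higher. These Ebf genes are active both in mesenchyme and in neurons. Ebf1 and Ebf2 moved together with the neuron markers, whose part in the result was not tested, and Ebf3 went the other way. The threshold was missed for Six4 without mandibular replicate 1 or maxillary replicate 1 or 3 (adjusted p 0.076 to 0.17) and Tfap2b without mandibular replicate 2 or 3 or maxillary replicate 1 (adjusted p 0.059 to 0.089). No longer called against set 2 was Tfap2a (-0.28).

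Genes outside the transcription factor families also stood out in the mandibular branch. Gpr50, an X-linked gene for an orphan receptor related to the melatonin receptors, gave 747, 773 and 741 on the mandibular arrays and 16.6, 17.7 and 20.8 on the maxillary arrays, and its second probe set was called as well (2.07). Cited1, an X-linked cofactor of transcription, gave 568, 610.0 and 598 on the mandibular arrays and 96.3, 76.5 and 77.1 on the maxillary arrays. Rgs5, a regulator of G protein signalling often used to mark pericytes, gave 255, 235 and 237 on the mandibular arrays and 31.0, 23.3 and 37.4 on the maxillary arrays. For all of these the maxillary signals were a small part of the mandibular ones, and the differences were 3.96 ± 0.14, 2.43 ± 0.10 and 2.14 ± 0.15. Of the 12 measured members of the list of mural and smooth muscle cells, which holds Rgs5, Foxc2 was called higher besides, and Pdgfrb, the defining receptor of mural cells, was lower (-0.39). The list had 9 values above 0 and a median of 0.14, and against set 2 a median of 0.29 with 1 gene called higher. Further rises were found for Lrrc17 (1.68), a secreted leucine-rich protein, Cavin2 (1.60), a coat protein of caveolae, Bnc1 (1.45), a zinc finger gene of epithelia, and Synpo2 (1.32), an actin-binding protein. Among genes lower in the mandibular branch and not in a list, Tmem30b, a subunit of lipid flippases, led with signals of 65.7, 60.9 and 62.5 on the mandibular arrays and 379, 389 and 439 on the maxillary arrays and a difference of -2.17. The other leading ones were Ppp1r17 (-2.10) and Ppp1r1c (-1.68), both inhibitors of protein phosphatase 1. Calls did not hold for Pdgfrb without mandibular replicate 1 or 3 or maxillary replicate 1 or 2 (adjusted p 0.054 to 0.16). Against set 2 Pdgfrb (-0.25) was not called.

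The called genes of the retinoic acid pathway were all lower in the mandibular branch. Retinoic acid is made from vitamin A by aldehyde dehydrogenases, is carried in the cell by CRABP proteins, acts through nuclear receptors, and is broken down by CYP26 enzymes. Of 16 measured genes 0 were higher and 4 were lower, 12 were not called, and the median was -0.22. The receptor gene Rarb had signals of 174, 139 and 164 on the mandibular arrays and 311, 299 and 331 on the maxillary arrays. The enzyme gene Cyp26a1 had signals of 60.02, 74.5 and 70.1 on the mandibular arrays and 154, 164 and 153 on the maxillary arrays. Both are textbook direct targets of retinoic acid, and neither overlapped between the branches (differences -0.86 ± 0.09 and -0.90 ± 0.10). The binding protein genes Crabp1 (-0.68) and Crabp2 (-0.26) were the other called members, and the call of Crabp2 was lost when arrays were shifted to a common median, which left 3. The synthesis genes Aldh1a3 (-0.60 ± 0.19) and Aldh1a2 (0.37 ± 0.16) were not called. Against set 2 the list had a median of -0.19, with 5 genes called lower and 0 higher.

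The promoters of Rarb and Cyp26a1 are shown because they shared an element. Each sequence covers the 250 bases before the start site in RefSeq, build GRCm38.p6, 5′ to 3′ on the gene's strand, with Rarb at chr14:16575477-16575726 on the minus strand and Cyp26a1 at chr19:37697558-37697807 on the plus strand. The capitals mark the fixed letters of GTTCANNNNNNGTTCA, a form of the retinoic acid response element, searched on both strands, which Cyp26a1 holds on the opposite strand.
Rarb: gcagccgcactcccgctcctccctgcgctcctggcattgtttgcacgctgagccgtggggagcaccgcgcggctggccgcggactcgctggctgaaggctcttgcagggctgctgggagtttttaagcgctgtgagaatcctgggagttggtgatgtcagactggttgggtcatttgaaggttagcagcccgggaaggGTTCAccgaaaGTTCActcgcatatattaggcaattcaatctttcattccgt
Cyp26a1: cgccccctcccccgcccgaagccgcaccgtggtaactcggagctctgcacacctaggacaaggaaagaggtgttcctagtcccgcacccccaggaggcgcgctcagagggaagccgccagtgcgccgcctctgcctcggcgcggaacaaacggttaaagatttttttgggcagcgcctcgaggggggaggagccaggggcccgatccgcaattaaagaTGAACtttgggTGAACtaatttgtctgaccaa
The element begins 52 bases before the start site in Rarb and 32 bases before it in Cyp26a1. It occurred in 25 of the 32851 promoters of the table (0.0761%), counted over windows of 300 bases. Among the promoters of called genes it was found in 2 of 278 for genes lower (0.719%), these of Rarb and Cyp26a1, and in 0 of 233 for genes higher in the mandibular branch. The stricter form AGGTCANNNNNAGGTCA occurred in 3 promoters of the whole table and in 0 of those of called genes. The motifs were chosen with the retinoid genes already known to differ.

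Calls in the WNT pathway fell on modulators and receptors. Of 13 measured ligands 0 were higher and 0 lower by limma, with an unadjusted p under 0.05 for 2 (15.4%, against 13.8% of all measured genes), and their median was 0.02. Of 23 modulators and targets 3 were higher and 5 were lower. The inhibitor Dkk1 gave 297, 239 and 259 on the mandibular arrays and 92.3, 105 and 91.4 on the maxillary arrays, and Dkk2 was higher too (0.81). Sfrp2, a secreted inhibitor of another kind, was higher in the maxillary branch, with signals of 386, 437 and 357 on the mandibular arrays and 911, 887 and 875 on the maxillary arrays. R-spondins, which strengthen WNT signals, split between the branches, with Rspo2 higher (0.85) and Rspo1 (-0.81) and Rspo3 (-1.05) lower. A second, dim probe set of Rspo2 did not differ in that way (-0.06). Shisa3 (-0.98) and Shisa2 (-0.62), which hold back WNT and FGF receptors inside the cell, were lower. Among 24 receptors and effectors Fzd1 (0.34) was higher, and Ror1 (-0.45), a receptor of noncanonical WNT, and Tcf7l1 (-0.51), a repressor of WNT targets, were lower. Fits that left out an array made no call for Fzd1 without mandibular replicate 1 or maxillary replicate 1 (adjusted p 0.05035 to 0.07). Fzd1 (0.23) was not called with set 2 as control.

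The hedgehog list held 15 measured genes, of which 2 were higher and 1 was lower. The ligand gene Shh gave 355, 330.3 and 268 on the mandibular arrays and 157, 131 and 133 on the maxillary arrays, and its receptor and target Ptch1 gave 1659, 1767 and 1919 on the mandibular arrays and 1158, 1122 and 1149 on the maxillary arrays, without overlap in either case. The target Gli1 (0.34 ± 0.16) and the inhibitor and target Hhip (0.54 ± 0.16) had values above 0 that missed the threshold, and the coreceptor Cdon was lower (-0.57). In the BMP list Bambi (0.62), a decoy receptor, and Bmper (0.71), a BMP-binding protein, were higher and the ligand Bmp7 (-0.64) was lower, out of 26. Bmp4, the ligand best known from the distal mandibular arch, was not called (-0.11 ± 0.10). Among 19 TGF beta genes only Tgfb2 was called (0.62). In the FGF list, out of 27, the FGF receptor partners Flrt2 (0.63) and Flrt3 (0.51) and the receptor Fgfr2 (0.38) were higher, and Dusp6 (-0.49), a feedback inhibitor of ERK, and Fgf13 (-0.47), a neuronal member, were lower. Fgf8, the ligand of the oral ectoderm, had signals of 109, 98.1 and 85.8 on the mandibular arrays and 128.3, 132 and 127.6 on the maxillary arrays, which did not overlap, and was not called (-0.31 ± 0.11, adjusted p = 0.17). Among 13 endothelin pathway genes the called one was the receptor Ednrb (-0.93), a gene of crest cells and glia, whereas Edn1 (0.28 ± 0.23) was not called. The called shares were 20% for hedgehog, 11.5% for BMP and 18.5% for FGF genes, against 3.56% of all measured genes. The shares for TGF beta (5.26%) and endothelin genes (7.69%) lay nearer to it. No call was made for Bmper without any 1 of the 6 arrays (adjusted p 0.075 to 0.14), Fgfr2 without any 1 of the 6 arrays (adjusted p 0.052 to 0.11) and Tgfb2 without mandibular replicate 2 or 3 or maxillary replicate 1 or 2 (adjusted p 0.054 to 0.11). The threshold was missed for Fgf13 without mandibular replicate 1 or maxillary replicate 3 (adjusted p 0.055 to 0.1). Set 2 in place of WT_MXA gave no call for Fgf13 (-0.10).

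The insulin-like growth factors pointed in opposite directions. Igf2, an imprinted growth factor of the embryo, gave 5671, 5768 and 5184 on the mandibular arrays and 2416, 2603 and 2314 on the maxillary arrays. Igf1, the growth factor that dominates after birth, gave 623, 553 and 533 on the mandibular arrays and 2036, 1749.9 and 1819 on the maxillary arrays. The differences were 1.20 ± 0.07 and -1.70 ± 0.09, the branches did not overlap, and all other kept probe sets of both genes were called in the same direction. The other 12 measured genes of the axis, with both receptors and the measured binding proteins among them, were not called.

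Imprinted genes, which are read from the allele of a single parent and many of which act on growth, formed the list with the most one-sided counts among those higher in the mandibular branch. Of 23 measured members 12 were higher and 0 were lower, with a median of 0.34. Plagl1, a zinc finger factor, had signals of 217, 196 and 217 on the mandibular arrays and 49.0, 31.8 and 38.6 on the maxillary arrays. Meg3, Rian and Mirg, noncoding transcripts that follow each other in the Dlk1 domain, were higher by 0.94, 1.13 and 0.86. The neighbours Ndn (0.45) and Magel2 (1.02) of the Prader-Willi region were higher as well. Peg3 (0.71), Asb4 (0.87), Mest (0.34), Nnat (0.29) and the cell cycle inhibitor Cdkn1c (0.28) completed the list together with Igf2. Called members included genes read from the father's allele, such as Igf2, Plagl1 and Peg3, and genes read from the mother's, such as Meg3 and Cdkn1c. The members not called ran from -0.22 to 0.58. Against set 2, 13 members were called higher and 0 lower, with a median of 0.37. The list was chosen with part of these values already known. Calls did not hold for Nnat without mandibular replicate 2 or maxillary replicate 2 (adjusted p 0.056 to 0.066) and Cdkn1c without mandibular replicate 3 or maxillary replicate 3 (adjusted p 0.063 to 0.067). No longer called against set 2 was Cdkn1c (-0.11).

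Growth factors that act through tyrosine kinases were split. Hgf, which guides muscle precursors and axons through the receptor Met, gave 96.6, 80.6 and 107 on the mandibular arrays and 22.2, 24.1 and 25.6 on the maxillary arrays, and Pdgfc (0.52) and the receptor Pdgfra (0.33) were higher. Kitl (-0.56), the ligand that supports melanocyte precursors, was lower. Bdnf, a survival factor for sensory neurons, gave 24.4, 42.2 and 52.9 on the mandibular arrays and 124, 133 and 182 on the maxillary arrays. The neurotrophin receptor Ngfr gave 79.8, 66.4 and 52.2 on the mandibular arrays and 216, 227 and 198 on the maxillary arrays, so both were higher in the maxillary branch. Ngfr is a gene of neurons and glia, whose markers were also higher on the maxillary arrays, and the part of those cells in this result was not tested. The chemokine Cxcl14 gave 354, 309.5 and 319 on the mandibular arrays and 141, 128.2 and 118 on the maxillary arrays, a difference of 1.15, and the chemokine scavenger Ackr3 was lower (-0.79).

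Guidance genes were called at a share of 9.68% in the ephrin, netrin and Slit list, against 3.56% of all measured genes. The share was 7.14% of 28 genes in the list of semaphorins, plexins and neuropilins. Of 31 ephrin, netrin and Slit genes 3 were higher and 0 were lower, with a median of 0.14. The netrin receptor gene Unc5c gave 307, 266 and 279.6 on the mandibular arrays and 74.3, 67.3 and 81.0 on the maxillary arrays, without overlap, and its second probe set was called too (1.68). Efnb2 (0.50) and Epha3 (0.41) were the others. In the list of semaphorins, plexins and neuropilins 1 gene was called in each direction, the receptor Plxna2 higher (0.56) and the receptor Nrp1 lower (-0.57). Against set 2, 4 ephrin, netrin and Slit genes were higher and 2 lower. In the semaphorin, plexin and neuropilin list 2 were higher and 2 lower there. Among the 27 measured collagens of the list Col9a1, a cartilage collagen, was higher, with signals of 2617, 2429 and 2819 on the mandibular arrays and 1129, 1012 and 1102 on the maxillary arrays. Col8a2, a network-forming collagen outside the list, was higher as well, with signals of 206, 186 and 177 on the mandibular arrays and 63.0, 65.8 and 34.7 on the maxillary arrays and a difference of 1.36. Col1a2 (-0.84), Col6a3 (-0.56) and Col26a1 (-0.54) were lower. Among 48 other matrix genes 4 were higher, including the proteoglycans Gpc3 (0.50), Sdc2 (0.72) and Bgn (0.47), and 7 were lower. The lower ones included the hyaluronan genes Has2 (-0.79), the synthase, Itih5 (-1.15), which belongs to a family that binds hyaluronan, and Vcan (-0.45), a proteoglycan that binds it as well. Integrin subunits Itgb5 (-0.71), Itga8 (-0.64) and Itga9 (-0.68) were lower, and the X-linked Pcdh19 (0.78) was the only called member of its list that was higher. Fits that left out an array made no call for Efnb2 without mandibular replicate 2 or any 1 maxillary array (adjusted p 0.084 to 0.27), Epha3 without mandibular replicate 2 or maxillary replicate 2 or 3 (adjusted p 0.052 to 0.084) and Col6a3 without mandibular replicate 2 (adjusted p = 0.054). No call was made for Sdc2 without mandibular replicate 1 or maxillary replicate 2 (adjusted p 0.071 to 0.075) and Bgn without mandibular replicate 1 or maxillary replicate 3 (adjusted p 0.082 to 0.086). Against set 2 Plxna2 (0.15), Col1a2 (-0.11), Col6a3 (0.13) and Itga9 (0.16) were not called.

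**Figure D3:**
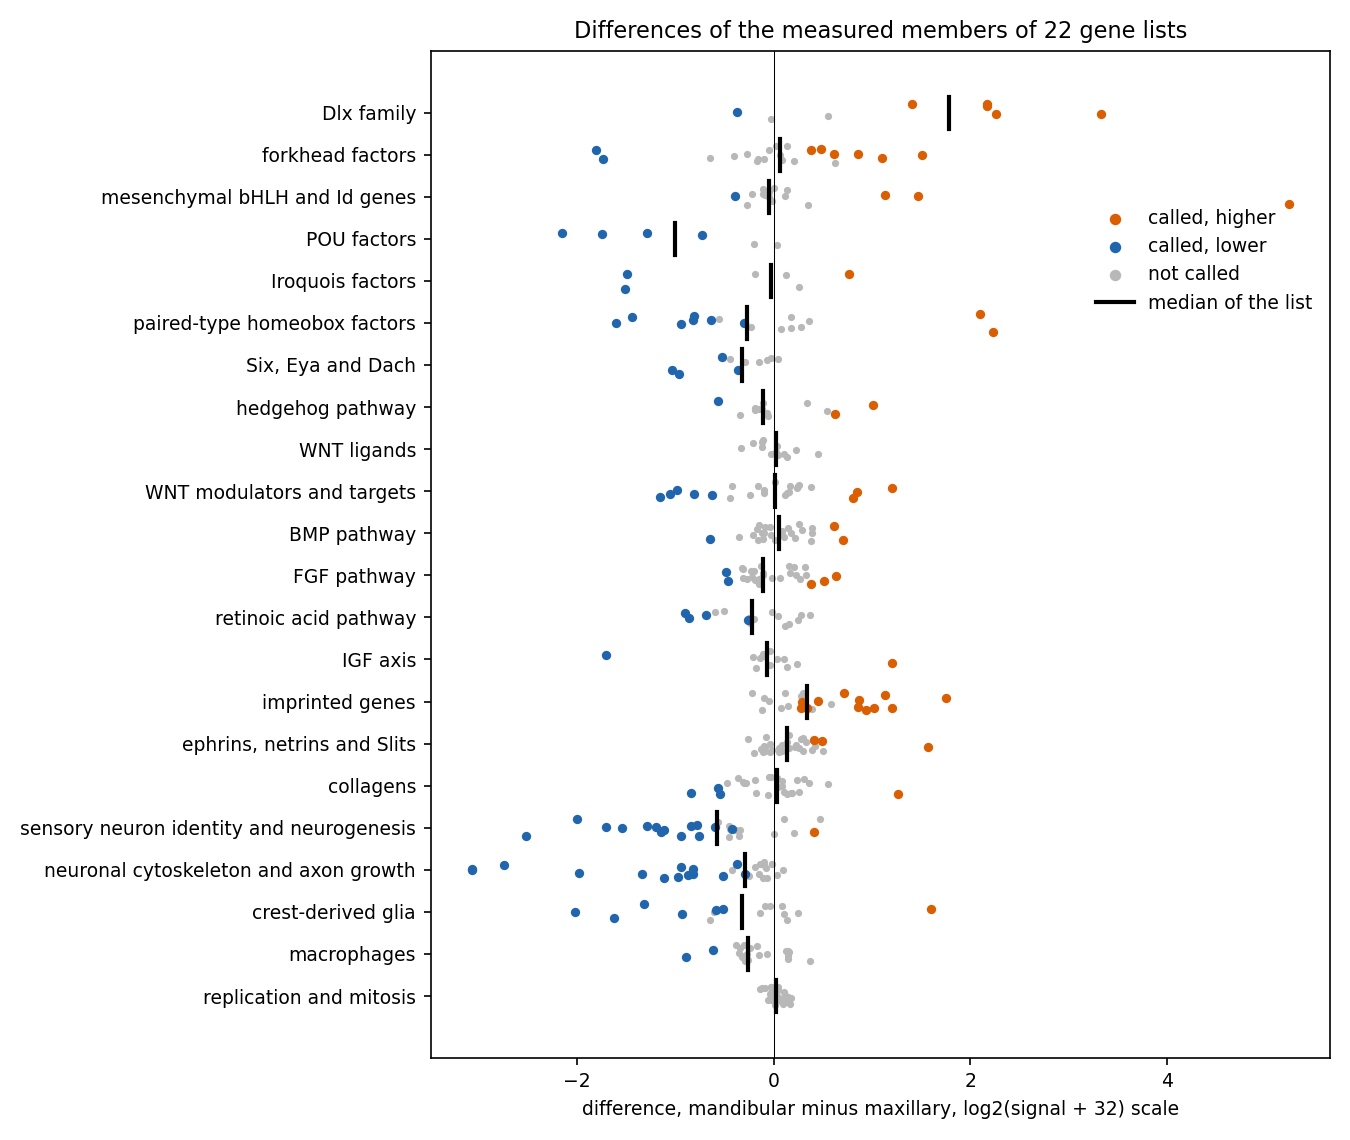
Difference of every measured member (mandibular minus maxillary, log2 scale) in 22 gene lists, with called members as filled orange (higher) or blue (lower) points, other members as grey points, and a black bar at the list median. The imprinted and Dlx lists lie mainly above 0 and the neuron and glia lists below, while replication genes cluster at 0 with no called member.

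Neuron genes made up the lists with the most members higher in the maxillary branch. Of 26 measured genes of sensory neuron identity and neurogenesis 14 were lower and 1, Ebf3, was higher in the mandibular branch, and the list median was -0.58. Neurod1, a neurogenic factor, had signals of 5.33, 5.57 and 7.33 on the mandibular arrays and 159, 226 and 190.4 on the maxillary arrays, and 65.8, 61.8 and 64.9 in set 2. Neurog1 (-1.71), which starts sensory neurogenesis in the trigeminal placode, Insm1 (-1.997), Pou4f1 (-1.29) and Elavl4 (-1.54) were lower. Of 29 genes of the neuronal cytoskeleton 14 were lower and 0 were higher. The neurofilament gene Nefl had signals of 40.2, 25.9 and 38.6 on the mandibular arrays and 567, 554 and 514 on the maxillary arrays, and 161, 232 and 137 in set 2. Its neighbour Nefm (-3.06), Stmn2 (-2.74), Tubb3 (-1.97) and Ina (-1.34), which encodes another neuronal intermediate filament, followed it. The neuropeptide gene Sst had signals of 2.63, 5.52 and 9.57 on the mandibular arrays and 168, 189 and 244 on the maxillary arrays, and 47.2, 97.7 and 66.9 in set 2. In each case set 2 lay between the branches. The list of neuropeptides and transmitter genes did not follow Sst, its only lower member. Of its 18 measured genes 3 were called higher in the mandibular branch, and its median was 0.006. Of 24 synaptic genes only Snap25 was called (-1.10), and of 18 ion channel genes only P2rx3 (-1.13), an ATP receptor of sensory endings. These shares, 4.17% and 5.56%, lay near the 3.56% called among all measured genes. Isl1, a gene of sensory neurons and of arch epithelium and mesoderm, was lower against WT_MXA (-0.42 ± 0.10) but called higher against set 2 (0.35). The threshold was missed for Isl1 without any 1 mandibular array or maxillary replicate 1 or 3 (adjusted p 0.055 to 0.099). Snap25 (-0.51) and P2rx3 (-0.52) were not called with set 2 as control.

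Glial genes followed the neurons, with 6 of 16 lower. Fabp7, a fatty acid binding protein of glial precursors, had signals of 59.6, 47.9 and 63.0 on the mandibular arrays and 285, 339.6 and 388 on the maxillary arrays, and 208, 170.0 and 229 in set 2. Sox10, the defining factor of crest-derived glia, had signals of 32.7, 13.9 and 25.04 on the mandibular arrays and 116, 159.8 and 161 on the maxillary arrays, and 58.1, 59.9 and 91.5 in set 2. Pmp22, a myelin protein gene that mesenchyme also uses, went against the list, with signals of 411, 347 and 354 on the mandibular arrays and 96.3, 101 and 103 on the maxillary arrays and a difference of 1.60.

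**Figure D4:**
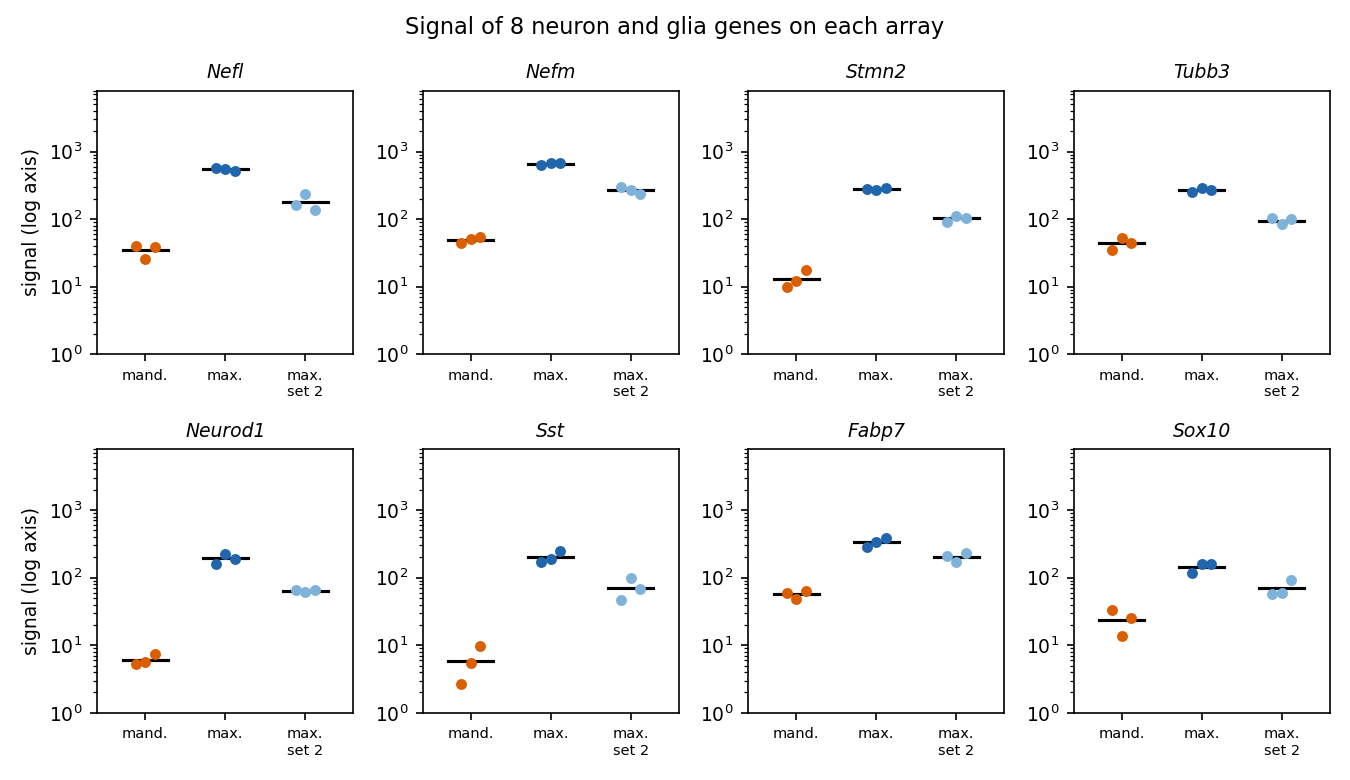
Signal of 8 neuron and glia genes on each array (log axis, arbitrary intensity units) for the mandibular branch, the maxillary branch and set 2, with 3 points each and a bar at the mean. For each of the 8 genes set 2 lies below the maxillary and above the mandibular mean.

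The macrophage, endothelial, erythroid and epithelial lists held smaller shares of called genes, 3.1% to 9.1%, than the glia list (43.8%). The share over all measured genes was 3.56%. The macrophage list had a median of -0.26, with 2 of 22 genes lower, the complement gene C1qa (-0.89) and the receptor gene Csf1r (-0.62). Among 24 endothelial genes Plvap (-0.54) was called, and Pecam1 (0.00 ± 0.14) and Cdh5 (-0.08 ± 0.14) were not. Of 14 erythroid genes the embryonic globin Hba-x was called with a difference of 0.20. Of 32 measured members of the epithelial list 1 was higher and 0 were lower. The higher one was Cbx8 (0.52), a Polycomb gene that is not among the epithelial markers used here. The epithelial markers Cdh1 (0.26 ± 0.09) and Epcam (-0.05 ± 0.08) were not called. Genes of muscle precursors did not move as one. The myogenic factor Myf5 had signals of 46.9, 63.3 and 69.4 on the mandibular arrays and 11.8, 12.8 and 8.47 on the maxillary arrays, a difference of 1.12 ± 0.16 in favour of the mandibular branch. Myod1 (0.08 ± 0.23) and Myog (-0.73 ± 0.22) were not called. The summed muscle markers were 221 to 244 on the mandibular and 101.6 to 142.0 on the maxillary arrays, and 106.7 to 119 in set 2. Of 23 genes of crest and arch mesenchyme 2, Pdgfra and Foxc2, were higher and 8 were lower. That list thus had 43.5% of its genes called, a share like that of the glia list. Calls did not hold for C1qa without mandibular replicate 1 (adjusted p = 0.058), Hba-x without mandibular replicate 2 or 3 or maxillary replicate 1 or 2 (adjusted p 0.056 to 0.15) and Cbx8 without any 1 of the 6 arrays (adjusted p 0.086 to 0.19). Set 2 in place of WT_MXA gave no call for C1qa (-0.54), Plvap (0.10), Hba-x (0.11) and Cbx8 (0.23).

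The lists of replication and of stressed cells held no called genes, whereas that of cyclins and G1 regulators did. Of 31 genes of replication and mitosis 0 were higher and 0 were lower, with a median of 0.03. Of 21 cyclins and G1 regulators Ccnd2 was lower (-0.37), and Cdkn1c and Mycl (0.53) were higher. These made up 14.3% of that list, against 3.56% called among all measured genes. No member was called among 24 Notch, 3 Zic, 8 Hox, 23 hypoxia and 18 stress genes. Without adjustment, p under 0.05 in limma was found for 6, 0, 1, 7, 3 and, among replication genes, 3 of them, against 13.8% of all measured genes. The Notch genes (25%) and the hypoxia genes (30.4%) lay above that share. When arrays were shifted to a common median 3 hypoxia genes, Egln3, Ankrd37 and P4ha2, were called higher, and their values here were 0.58, 0.46 and 0.39. Against set 2, 4 hypoxia genes were called higher and 2 lower. Fits that left out an array made no call for Mycl without any 1 mandibular array or maxillary replicate 1 or 3 (adjusted p 0.053 to 0.2). No longer called against set 2 was Mycl (0.31).

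Called genes were in places next to each other on a chromosome, by the gene order of the RefSeq table. Of 13883 pairs of measured neighbours both members were called in 47, in 18 of them both higher, in 17 both lower, and in 12 in opposite directions. Besides the pairs already given, the X-linked genes Rtl3 (1.37), Lpar4 (0.90), Itm2a (1.15) and Tbx22 followed each other among the measured genes, and all were higher. Itm2a, a membrane protein gene of early cartilage and muscle, had signals of 3444, 3334 and 3366 on the mandibular arrays and 1552, 1449 and 1578 on the maxillary arrays. Rtl3, a gene derived from a retrotransposon, had signals of 60.5, 53.8 and 52.9 on the mandibular arrays and 2.93, 3.15 and 1.58 on the maxillary arrays. Usp53 (0.55), Synpo2 and Sec24d (0.63) were another such run, and so were Mt1 (0.42) and Mt2 (0.51), the metallothioneins. Neighbours that differed in opposite directions included Neurog1 and Cxcl14, Angpt1 (-0.54) and Rspo2, and Capn6 (1.07) and the neuronal gene Dcx (-1.11). No call was made for Usp53 without mandibular replicate 1 or 3 or maxillary replicate 2 or 3 (adjusted p 0.11 to 0.17), Mt1 without mandibular replicate 1 or maxillary replicate 2 or 3 (adjusted p 0.055 to 0.11) and Mt2 without mandibular replicate 3 or maxillary replicate 1 or 3 (adjusted p 0.055 to 0.15). The threshold was missed for Angpt1 without mandibular replicate 2 or maxillary replicate 1 (adjusted p 0.12 to 0.14). Against set 2 Usp53 (0.25), Mt1 (0.23), Mt2 (0.18) and Dcx (-0.35) were not called.

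The X chromosome held more of the mandibular genes than any autosome. Of 459 measured X-linked genes 26 were called higher in the mandibular branch, or 5.66%, against 1.56% of all genes and 0.77% to 2.83% on the 19 autosomes. Called lower were 10 X-linked genes, or 2.18%, against 2.0% of all genes and 0.77% to 3.57% on the autosomes. X-linked genes were 3.29% of the measured genes, 12% of the higher genes and 3.58% of the lower genes. The higher genes included Gpr50, Cited1, Rtl3, Itm2a, Capn6, Lpar4, Tbx22, Pcdh19, the kinase genes Rps6ka3 (0.84) and Rps6ka6 (0.80), the glypican gene Gpc3, which is mutated in a human overgrowth syndrome, and Amot (0.62), a regulator of the Hippo pathway. The median difference of all X-linked genes was 0.04. With set 2 as control 45 X-linked genes were called higher and 20 lower, and 25 of the 26 were among the higher ones. That was 9.8% of X-linked genes called higher, against 4.64% to 7.90% on the autosomes, a narrower gap than against WT_MXA. In the fits that left out a single array 22 to 26 X-linked genes were called higher, and 31 after shifting the medians. Among genes that differ between the sexes, Xist (-0.08 ± 0.19), which is expressed from the inactive X of females, and the Y-linked Eif2s3y (-0.05 ± 0.13), Uty (0.18 ± 0.14) and Kdm5d (0.25 ± 0.12) were not called. The chromosomes were compared after the values of called genes had been seen, and no test was made.

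**Figure D5:**
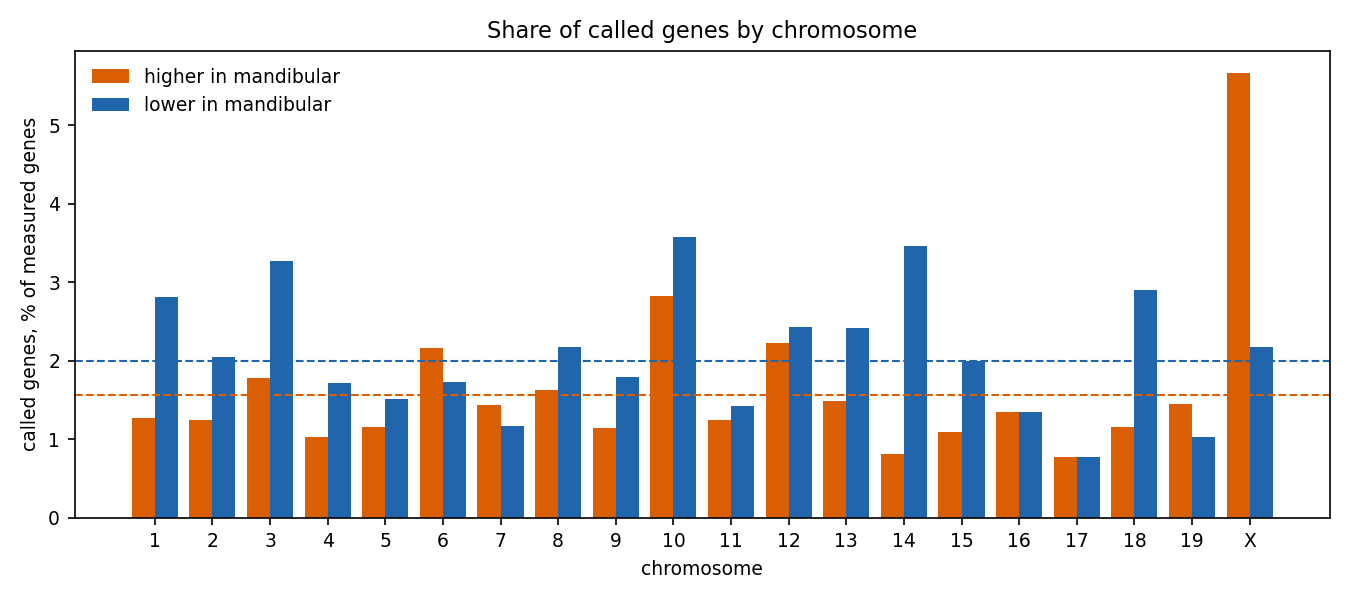
Share of the measured genes of each chromosome that were called higher (orange bars) or lower (blue bars) in the mandibular branch, in percent, with dashed lines at the shares over all genes (1.56% higher, 2.0% lower). The X chromosome has the tallest orange bar, 5.66%, while its blue bar, 2.18%, lies within the range of the autosomes.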

How the data were processed

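The authors deposited 1 linear intensity for each probe set, already scaled, since the mean after cutting 2% of the values at either end came to 150.0 on every array used. The array design was taken from its probe set names. The sources used here do not give the software behind these values, and detection calls were not used here. Arrays were assigned by their titles. No depth applies to arrays, so the 3 arrays a group limit the precision, with a median standard error of 0.148.

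Values were converted to log2(value + 32), which understates changes of dim genes, and quantile normalized over the 15 arrays. The 45101 probe sets included 64 controls, and 31643 were kept because on 3 or more arrays they exceeded the 40th percentile of that array. One limma model (limma 3.58.1 in R 4.3.3) gave each of the 5 groups a mean, with 10 residual degrees of freedom and a variance moderated with an intensity trend. Tests were two-sided, with Benjamini and Hochberg adjustment over the kept probe sets. GEO's platform table named 1 gene for 34958 probe sets, several for 932 and none for 9211, and only the first kind was named. The identifiers of 34754 of these were found in the RefSeq gene table and 0 symbols changed. A gene was represented by its brightest kept probe set, those tagged as less specific being used only where no other was kept.

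Gene lists, 65 in all, were described by counts and medians without a set test. The members and lists were chosen with earlier results of these data known. Named were the 25 largest rises and falls without overlap, up to 8 called members of a list, any measured member of a list of up to 40 that is described, called neighbours, and genes whose other probe set was called the opposite way, of which there were 0. Neighbours came from the gene order of the RefSeq table (GRCm38.p6), and promoters from RefSeq, which held one for 380 of the 496 called genes. The alternatives changed the scaling, the pseudocount (8 or 128) and the filter, and added a fit of the 6 arrays alone, other variance models, array weights, a replicate block, a threshold of 0.01, set 2 as control, other probe sets and leaving out each array. On simulated data with 31643 probe sets and these group sizes, differences were put in as steps on the log2 scale with the pseudocount. The procedure found 48% of the 1.5-fold, 84% of the 2-fold, 100% of the 3-fold and 98% of the 4-fold steps. Among its 170 calls 5 were false. The same folds of signal give smaller steps on that scale, most of all for dim genes, so their recovery was not measured.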

Additional observations from a re-analysis of the deposited data

How the results depend on the processing

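The count of called probe sets, 835, stayed between 635 and 1042 under the other scalings, pseudocounts, filters, variance models, array weights and the fit of the 6 arrays alone, and between 607 and 693 without a single array. A threshold of 0.01 left 530 probe sets, 217 higher and 313 lower. With set 2 as control, which lies in another set of arrays, 3318 were called, 1710 higher and 1608 lower. Same-numbered arrays correlated at -0.096, -0.078 and 0.032 in their deviations from the group means, which gave no sign of pairing. Deviations from means of so few arrays also hold the noise of single probe sets, so these values cannot exclude pairing. The sources used here do not say whether the replicate numbers pair the arrays. A replicate block gave 787 calls. A few named genes turned sign. Against set 2 these were Isl1 (0.35), Macroh2a1 (0.35), Arglu1 (0.30), Rab10 (0.30) and Mterf2 (-0.37), which were called, and Cdkn1c (-0.11), Col6a3 (0.13), Itga9 (0.16) and Plvap (0.10), which were not. On other probe sets of the same gene, none of them called, these were Knl1 (0.0076), Cdc25a (0.024), Meis1 (-0.016), Lrrc17 (-0.11), Rspo2 (-0.061), Tcf7l1 (0.030), Meg3 (-0.074), Col26a1 (0.14), Arglu1 (0.11), Rab10 (0.050), Itga9 (0.37) and Vcan (0.016, 0.061 and 0.27). The causes were not tested. Among the other probe sets of named genes 101 kept the call or its absence and 92 lost the call without turning sign. Those that lost it included probe sets of Dlx3 (0.57), Foxl2 (-0.30), Bdnf (-0.48), Hgf (0.47 and 0.70) and Ednrb (-0.30 and -0.37). Others were of Kitl (-0.28, -0.40 and -0.39), Itih5 (-0.50 and -0.46) and Csf1r (-0.41 and -0.32). Dim genes are limited most, since their signal lies near that of unexpressed genes and pseudocounts change the size of their differences.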

Other observations

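Called genes of lipid synthesis were all lower in the mandibular branch. Of 19 measured genes of cholesterol synthesis and its control, 18 had a value below 0, and 5 were called lower and 0 higher, with a median of -0.27. The called ones were Hmgcs1 (-0.49), Idi1 (-0.45), Fdps (-0.29) and Msmo1 (-0.32), enzymes of the pathway, and Insig1 (-0.57), its feedback regulator. Of 10 genes of fatty acid synthesis all had a value below 0 and 4 were called lower, the enzymes Fasn (-0.40), Acly (-0.20), Scd1 (-0.57) and Elovl6 (-0.35). With set 2 as control, which shares the mandibular arrays, the medians were -0.19 and -0.01, with 6 and 1 genes called lower.

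Genes of actin-binding and focal contact proteins moved apart. Of 33 measured genes 11 were higher, 2 were lower, and the median was -0.02. Ahnak (0.74), Nexn (0.80), Pdlim3 (0.75) and Fhl1 (0.60) were among the higher ones. With set 2 as control 13 were higher and 4 were lower. These lists were written after the called genes had been seen, so their counts are descriptions only.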
